A study of Mus musculus with 12 samples.

Results

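The genes described here are those for 9 Toll-like receptors (TLRs) and for the co-receptor Cd14, in bone marrow-derived macrophages (BMDMs), a primary cell obtained by growing mouse marrow precursors with a macrophage growth factor. The members were chosen by name as Tlr1, Tlr2, Tlr3, Tlr4, Tlr6, Tlr7, Tlr8, Tlr9, Tlr13 and Cd14, through symbols matched to the gene identifiers of the count table. All 10 were found among the 48526 genes of the table, and all 10 were among the 15523 genes kept by the filter on low counts.

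Total RNA was sequenced from BMDMs of mice homozygous for a deletion named HSS9 KO (called KO here), which lies upstream of Tnf, and of HSS9+/+ (WT) mice. Cells were grown for 6 d in medium with 20% L929-conditioned medium, a source of the macrophage growth factor M-CSF, and were then left untreated with PBS (UT) or given lipopolysaccharide (LPS), a component of the outer membrane of Gram-negative bacteria, for 6 hr. The 4 groups, WT UT and WT LPS, then KO UT and KO LPS, held 3 libraries each. The labels call the WT mice littermates, while the methods of the study describe purchased C57BL/6 mice and KO mice kept as homozygous breeding pairs, so a shared background of the genotypes is not assured. The mice were male by the methods. The deletion is in the germline, so every cell carries it, and a macrophage culture from bone marrow does not hold the tissue signals of resident macrophages. The labels do not say whether the libraries of a group came from separate mice, so p-values measure only the spread between these libraries, which may be technical.

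TLRs recognise conserved microbial molecules and signal through adaptors with a TIR domain, chiefly Myd88 and Ticam1. Tlr4 binds LPS at the cell surface together with Ly96 (MD-2), and Cd14 hands LPS to that complex. Tlr2 pairs with Tlr1 or Tlr6 to bind bacterial lipopeptides. Tlr3, Tlr7, Tlr8, Tlr9 and Tlr13 sit in endosomes and bind nucleic acids, namely double-stranded RNA for Tlr3, single-stranded RNA and its breakdown products for Tlr7, unmethylated CpG DNA for Tlr9 and a stretch of bacterial ribosomal RNA for Tlr13. The ligands of mouse Tlr8 are less settled than those of its human counterpart. Tlr13 occurs in mice and not in humans.

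Library totals ranged from 26154533 to 36423921 counts, and each member was counted at least 167 times in every library, the lowest being Tlr9 in a WT LPS library. All 7 macrophage markers were above a mean of 1 CPM (counts scaled to 1000000 per library by the TMM method), with summed levels of 24434.2 to 33678.9 CPM. The neutrophil markers summed to 19.9 to 79.3 CPM with the defining marker Ly6g at 0 in all 12 libraries, the stromal markers to 3.95 to 26.9 CPM, and B cell, T cell, plasmacytoid dendritic cell and conventional dendritic cell markers to at most 4.81 CPM. The share of counts on short structured RNAs (genes of the types snRNA, snoRNA, scaRNA, rRNA, ribozyme and miscellaneous RNA) was 3.00% to 3.25% in WT UT, 6.64% to 7.98% in KO UT, 4.04% to 6.89% in WT LPS and 3.23% to 3.43% in KO LPS. This share separated the genotypes in both treatments, in opposite directions. A fit with the share as a covariate therefore cannot tell the share from the genotype or from the interaction. A call kept or lost under that fit is given as a value only. Tnf, the readout of the deletion, was at 890 ± 57.4 CPM (SD, n = 3) in WT LPS and 432 ± 15.2 CPM (SD, n = 3) in KO LPS, a log2 fold change of -1.04 with SE 0.0604 (edgeR adjusted p 2.76e-10).

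Stretches of promoter sequence are shown for 4 members, Tlr1 and Tlr6, which rose with LPS, and Tlr9 and Tlr13, which fell, so that the letters can be set beside the responses given further on. RefSeq windows (GRCm38.p6) of 250 bases before to 50 bases after a start were held for 7 of the 10 members, and each stretch is the part before the start that overlaps no exon of the GENCODE annotation. Capitals mark matches to 4 short motifs searched on both strands, a kappaB-like motif (GGNNTTTCC), an ISRE-like motif (GAAANNGAA), an AP-1-like motif (TGANTCA) and a PU.1-like motif (GAGGAAGT). Each line gives the strand of the gene.
Tlr1, chr5:64933564-64933808, minus strand: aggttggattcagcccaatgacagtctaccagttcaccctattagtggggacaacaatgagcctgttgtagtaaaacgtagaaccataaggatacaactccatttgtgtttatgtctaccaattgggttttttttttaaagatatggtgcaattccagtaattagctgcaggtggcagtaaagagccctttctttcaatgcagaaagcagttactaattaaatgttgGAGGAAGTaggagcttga
Tlr6, chr5:64959167-64959416, minus strand: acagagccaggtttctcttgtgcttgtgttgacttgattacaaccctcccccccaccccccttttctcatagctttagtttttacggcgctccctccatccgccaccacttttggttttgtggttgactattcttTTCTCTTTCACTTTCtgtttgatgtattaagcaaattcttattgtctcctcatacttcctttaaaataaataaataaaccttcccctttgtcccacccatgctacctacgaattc
Tlr9, chr9:106222348-106222597, plus strand: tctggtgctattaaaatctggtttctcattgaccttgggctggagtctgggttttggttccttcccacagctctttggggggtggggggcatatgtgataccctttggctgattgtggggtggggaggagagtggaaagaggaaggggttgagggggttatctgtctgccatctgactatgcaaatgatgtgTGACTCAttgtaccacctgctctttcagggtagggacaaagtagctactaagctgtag
Tlr13, chrX:106143025-106143203, plus strand: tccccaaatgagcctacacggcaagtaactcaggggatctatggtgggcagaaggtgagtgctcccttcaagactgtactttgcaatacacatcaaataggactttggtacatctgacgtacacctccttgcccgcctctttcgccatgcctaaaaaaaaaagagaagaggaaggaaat
The Tlr1 stretch held a PU.1-like match from -23 to -16 relative to the start. The Tlr6 stretch, which lies in an intron of a longer Tlr6 transcript, held a pair of overlapping ISRE-like matches on the opposite strand, from -115 to -107 and from -109 to -101. The Tlr9 stretch held an AP-1-like match from -58 to -52, and the Tlr13 window held no match to any of the 4 motifs. Of the windows not shown, that of Tlr3 held a kappaB-like match from -210 to -202 and that of Tlr8 an ISRE-like match from -67 to -59, and that of Tlr2 held none. A second window of Tlr1 and a second of Tlr6, at other starts, held none either. The window of Tlr9 also held a PU.1-like match on the opposite strand after the start, from 10 to 17, so that this motif occurred at a member that rose and at one that fell. Such matches are frequent: over all 32851 windows of the same length, 5.82% held the kappaB-like motif, 8.56% the ISRE-like motif, 7.81% the AP-1-like motif and 3.2% the PU.1-like motif. A match is a description of the letters and not a site of binding.

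The levels of the members without LPS were compared first, per kilobase of exon so that genes of different length can be set side by side. Cd14 had the highest level of the 10 in every group, at 307 ± 11.6 CPM per kb (SD, n = 3) in WT UT. Among the TLRs of WT UT, Tlr13 led with 115 ± 3.26 CPM per kb and made up 31.8% of the summed level of the 9 Tlr genes. Tlr8 at 67.7 ± 1.86, Tlr7 at 65.8 ± 1.29 and Tlr2 at 56.4 ± 0.874 CPM per kb followed, and the libraries of Tlr7 and Tlr8 overlapped. The LPS receptor Tlr4 was at 34.6 ± 1.02 CPM per kb, 9.56% of the sum. Tlr1, Tlr6, Tlr9 and Tlr3 lay between 8.82 and 4.07 CPM per kb, and Tlr6 and Tlr9, neighbours in this order, did not differ beyond their spread. Thus without LPS the 5 endosomal receptors held most of the TLR RNA (257 ± 6.09 of 362 ± 6.64 CPM per kb). In these bulk libraries, fewer cells of a type and less RNA per cell cannot be told apart. In KO UT the members stood in the same order, from Cd14 at 421 ± 4.65 to Tlr3 at 2.86 ± 0.105 CPM per kb.

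After LPS the order changed. In WT LPS Tlr2 led the TLRs with 309 ± 12.2 CPM per kb and 45.1% of their sum, Tlr13 had dropped to 32.8 ± 1.70 CPM per kb and 4.78%, and the 4 surface receptors Tlr1, Tlr2, Tlr4 and Tlr6 together reached 400 ± 15.8 CPM per kb against 105 ± 1.03 in WT UT. The endosomal sum moved less, from 257 ± 6.09 to 285 ± 28.5 CPM per kb, with 2 of its 5 genes falling. Tlr7 at 106 ± 13.1 and Tlr8 at 102 ± 9.06 CPM per kb again overlapped over the libraries. Within each library their order turned, with a ratio of Tlr7 to Tlr8 of 0.981, 0.972 and 0.961 in WT UT and 1.08, 1.04 and 1.01 in WT LPS. In KO LPS Tlr2 again led, with 263 ± 9.09 CPM per kb and 37.5% of the sum, and Tlr13 stood above Tlr3 (40.5 ± 2.90 and 36.0 ± 1.37 CPM per kb), an order that was turned in WT LPS (32.8 ± 1.70 and 40.9 ± 4.77 CPM per kb). Cd14 was at 1974.8 ± 105 CPM per kb in WT LPS and 1880.8 ± 61.6 in KO LPS.

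**Figure D1:**
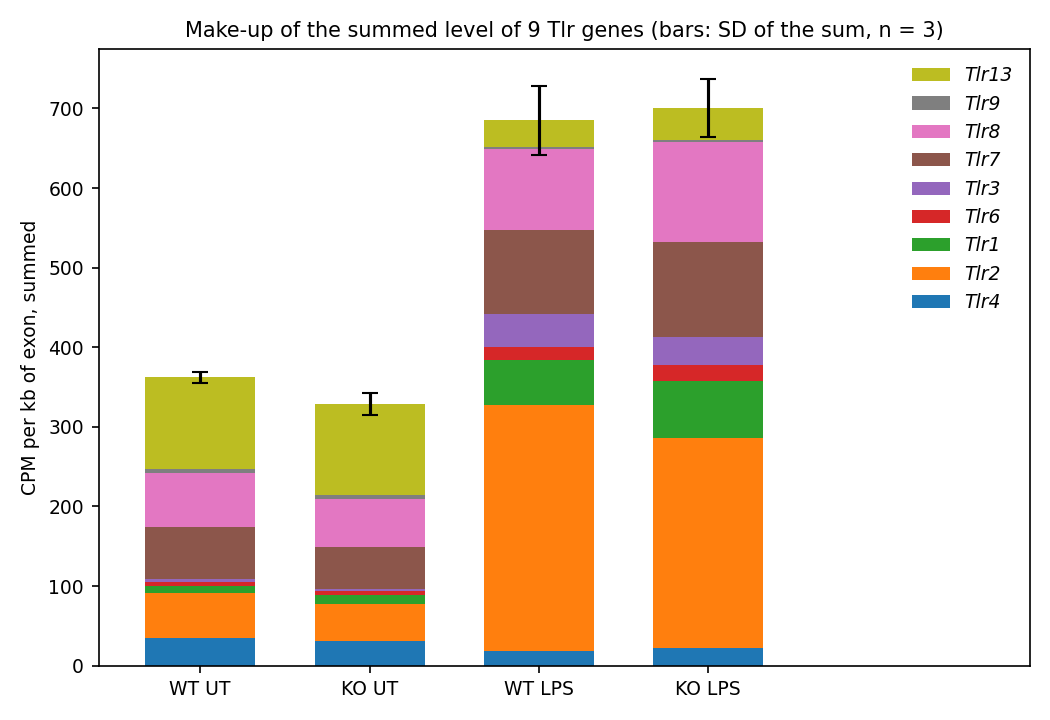
Summed level of the 9 Tlr genes by group, in CPM per kb of exon, with each gene's share as a coloured segment and the SD of the sum over 3 libraries as the error bar. The sum rises from 362 in WT UT to 685 in WT LPS, with Tlr13 the largest segment without LPS and Tlr2 the largest after it.

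The next question was how LPS changed each member in WT cells. All 10 members passed the test (edgeR adjusted p below 0.05, the rule for a change throughout), 7 higher and 3 lower, and 6 of them were also past an absolute log2 fold change of 1, that is, past a 2-fold change. Over all 15523 genes tested, 38.0% were higher, 35.3% were lower and 37.8% were past that fold. Most genes of these cells therefore changed with LPS, and that a member changed sets it apart little. The median log2 fold change of the members was 1.24, beside 0.05 over all genes.

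Cd14 (ENSMUSG00000051439.6, chromosome 18, 36725067 to 36726798), the co-receptor that carries LPS to Tlr4, was at 539, 510 and 549 CPM in the WT UT libraries and 3212.2, 3543.2 and 3505.7 CPM in the WT LPS libraries. It rose 6.43-fold (log2 fold change 2.68 with SE 0.0519, edgeR adjusted p 3.06e-21). Tlr4 (ENSMUSG00000039005.13, chromosome 4, 66827584 to 66930284), the signalling receptor for LPS itself, was at 187, 193 and 198 CPM in WT UT and 115, 101 and 98.7 CPM in WT LPS. It fell 1.83-fold (log2 fold change -0.87 with SE 0.0670, edgeR adjusted p 1.18e-10). Receptor and co-receptor thus moved in opposite directions, and no LPS library of either gene reached the range of the UT libraries. Their ratio within a library, which is free of the scaling between libraries, was 9.26, 8.47 and 8.89 in WT UT and 89.4, 113 and 114 in WT LPS (Cd14 to Tlr4, each in CPM per kb).

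The lipopeptide receptors rose together. Tlr2 (ENSMUSG00000027995.10, chromosome 3, 83836272 to 83841767), the shared partner of the heterodimers, was at 173, 168 and 169 CPM in WT UT and 966, 932 and 892 CPM in WT LPS (log2 fold change 2.45 with SE 0.0539, edgeR adjusted p 2.94e-20). Tlr1 (ENSMUSG00000044827.10, chromosome 5, 64924679 to 64933563), the partner for triacylated lipopeptides, was at 27.9, 28.8 and 31.8 CPM and then at 193, 184 and 182 CPM (log2 fold change 2.66 with SE 0.0639, edgeR adjusted p 1.34e-19). Tlr6 (ENSMUSG00000051498.6, chromosome 5, 64952031 to 64960097), the partner for diacylated lipopeptides, was at 19.8, 18.5 and 17.7 CPM and then at 67.0, 60.8 and 63.9 CPM (log2 fold change 1.78 with SE 0.0664, edgeR adjusted p 3.57e-16). Tlr1 and Tlr6 are neighbours, 18.5 kb apart with 0 genes of the table between them, and Tlr1 rose more than Tlr6, so that their ratio went from 1.57, 1.74 and 2.00 in WT UT to 3.21, 3.37 and 3.17 in WT LPS (CPM per kb). The ratio of Tlr2 to Tlr4 went from 1.71, 1.60 and 1.58 to 15.4, 17.0 and 16.7.

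The endosomal receptors went different ways. Tlr3 (ENSMUSG00000031639.12, chromosome 8, 45395665 to 45411080), the receptor for double-stranded RNA, had the largest fold change of the 10, from 20.4, 22.4 and 20.7 CPM in WT UT to 241, 201 and 196 CPM in WT LPS (10.1-fold, log2 fold change 3.33 with SE 0.0766, edgeR adjusted p 6.34e-20). An antisense gene, Gm45542, overlaps 381 exon bases of Tlr3 on the opposite strand, and since nothing says whether reads were counted by strand, reads of the pair in that stretch cannot be told apart. Tlr7 (ENSMUSG00000044583.13, chromosome X, 167304929 to 167330558) rose from 262, 272 and 271 to 496, 409 and 399 CPM (log2 fold change 0.70 with SE 0.0708, edgeR adjusted p 1.30e-08). Its neighbour Tlr8 (ENSMUSG00000040522.5, chromosome X, 167242696 to 167264329), 40.6 kb away with 0 genes of the table between, rose from 235, 246 and 247 to 403, 346 and 348 CPM (log2 fold change 0.59 with SE 0.0719, edgeR adjusted p 2.01e-07). The pair rose by similar amounts. The first WT LPS library was the highest of the 3 for both, as it was for every other Tlr member, and it was the lowest for Cd14.

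The other two endosomal members fell. Tlr13 (ENSMUSG00000033777.3, chromosome X, 106143204 to 106160493), which reads bacterial ribosomal RNA, went from 482, 493 and 510 CPM in WT UT to 148, 141 and 133 CPM in WT LPS (3.51-fold lower, log2 fold change -1.81 with SE 0.0615, edgeR adjusted p 6.22e-17). Tlr9 (ENSMUSG00000045322.10, chromosome 9, 106222598 to 106226883), which reads CpG DNA, went from 17.0, 17.5 and 16.5 to 9.21, 9.11 and 7.87 CPM (log2 fold change -0.96 with SE 0.101, edgeR adjusted p 2.18e-08). With 167 to 247 counts per WT LPS library, Tlr9 was the least counted member. For each of the 10 members the WT UT and WT LPS libraries did not overlap. Over all genes 74.8% likewise did not overlap. The summed level of the stromal markers was 3.95 to 4.63 CPM in WT UT and 21.4 to 22.9 CPM in WT LPS, through Pdgfrb (log2 fold change 4.36), whereas Col1a1 (-1.32) and Col1a2 (-0.87) fell and the other two did not pass. That of the neutrophil markers was 19.9 to 21.5 CPM and then 50.4 to 79.3 CPM, mostly through S100a8 (2.84, from a mean of 7.32 to 52.7 CPM). Of these markers Camp (4.25) rose too, and S100a9 (-0.86) and Ltf (-3.17) fell. The part of either list in the responses of the members was not tested. The markers of plasmacytoid dendritic cells, which use Tlr7 and Tlr9, summed to at most 0.678 CPM in WT UT and 3.10 CPM in WT LPS, with their defining marker Siglech at 0 in the WT LPS libraries. Of the 3 of these markers tested, Ccr9 (log2 fold change 3.86, to a mean of 2.53 CPM) and Cox6a2 (1.67, to 0.371 CPM) rose and Siglech fell, and their part in the responses of Tlr7 and Tlr9 was not tested. The single T cell marker tested, Cd4 (-2.07), and the single B cell marker tested, Cd79b (-2.84), fell. Of 4 conventional dendritic cell markers tested Clec9a (1.21) and Zbtb46 (1.08) rose and Cd209a (-1.70) fell, and the part of these markers was not tested either. All 7 macrophage markers passed as well. Fcgr1 (2.61), Itgam (1.16) and Adgre1 (0.34) rose, and Mertk (-2.35), Cd68 (-0.56), Csf1r (-0.38) and Lyz2 (-0.34) fell, with their part not tested.

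**Figure D2:**
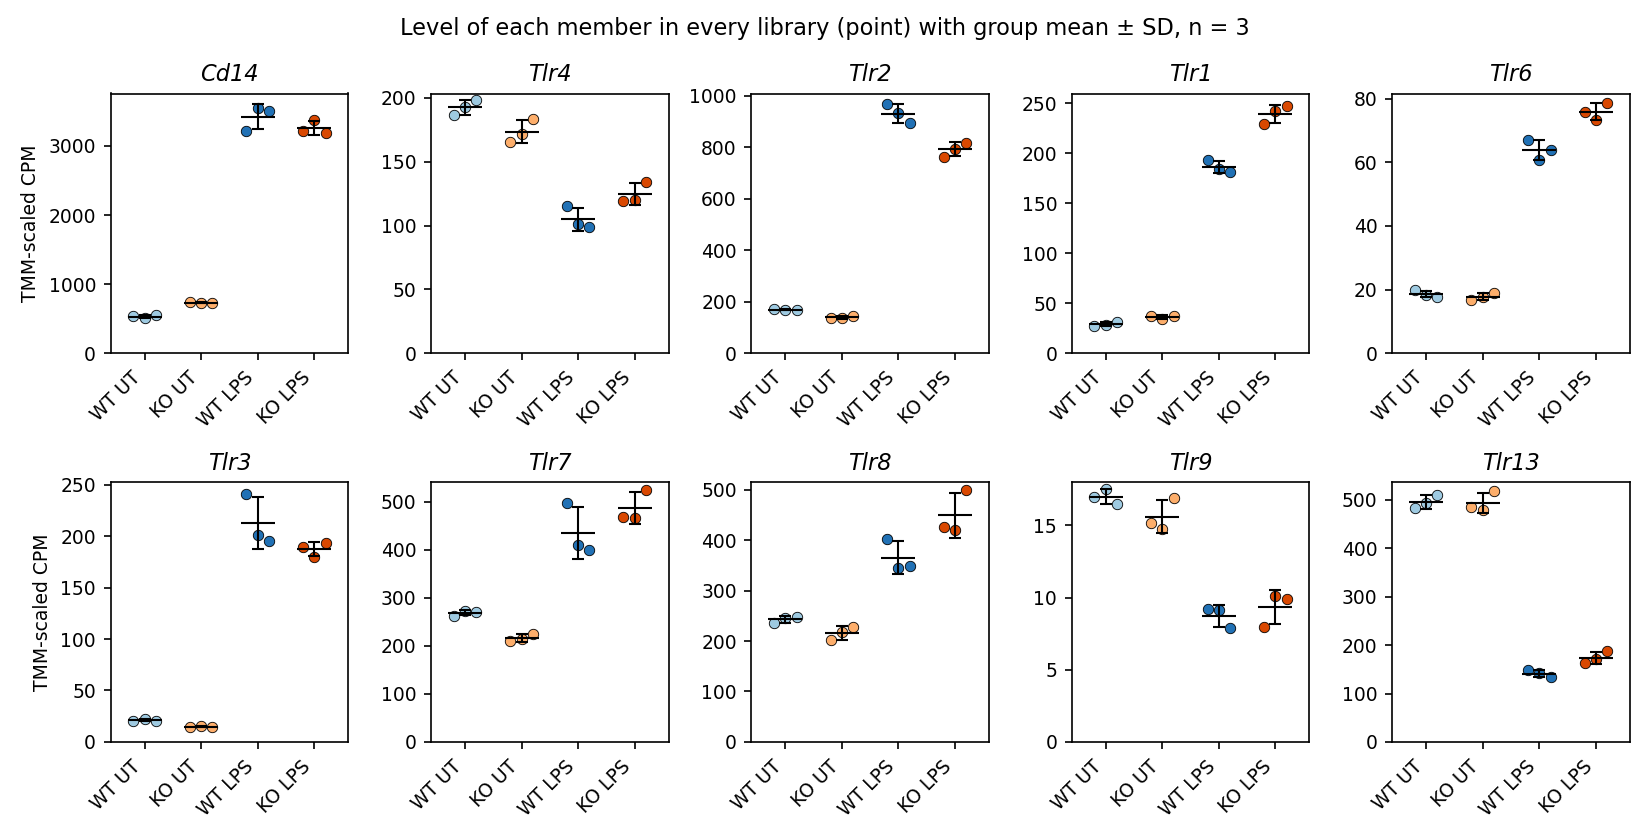
TMM-scaled CPM of each member (1 panel each, axis from 0) in the 12 libraries, with points for libraries and the bar for the group mean ± SD, n = 3. Cd14, Tlr2, Tlr1, Tlr6 and Tlr3 stand far higher in the LPS groups, whereas Tlr4, Tlr9 and Tlr13 stand lower.

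KO cells answered LPS in the same directions, with 7 members higher and 3 lower, and 8 past a 2-fold change. Markers of macrophages and of other cell types moved here too, and their part was not tested. Of 7 macrophage markers 3 rose, Fcgr1 (2.88), Itgam (1.38) and Adgre1 (0.46), and 3 fell, Mertk (-2.47), Cd68 (-0.85) and Lyz2 (-0.43). All 5 neutrophil markers tested passed, S100a8 (1.80) and Camp (2.27) higher and S100a9 (-1.32), Mpo (-2.88) and Ltf (-3.18) lower, as did Pdgfrb (3.95) and Dcn (1.12) of the stromal, Ccr9 (4.42) and Siglech (-2.51) of the plasmacytoid and Clec9a (1.44) and Cd209a (-1.15) of the conventional dendritic cell markers, Cd4 (-1.65) and Cd79b (-3.25). Mpo rested on 1 to 20 counts per library. The median log2 fold change of the members was 1.63, beside -0.06 over all genes. The background in KO cells was 35.1% of genes higher, 37.7% lower and 37.0% past that fold. Tlr3 had the largest rise here too, from 15.0, 15.4 and 14.3 CPM in KO UT to 189, 180 and 194 CPM in KO LPS (12.6-fold, log2 fold change 3.66 with SE 0.0796, edgeR adjusted p 2.18e-20). Cd14 rose 4.46-fold (log2 fold change 2.16 with SE 0.0509, edgeR adjusted p 9.19e-20). The other fold changes on the log2 scale were 2.72 for Tlr1, 2.49 for Tlr2, 2.09 for Tlr6, 1.17 for Tlr7, 1.06 for Tlr8, -0.48 for Tlr4, -0.74 for Tlr9 and -1.50 for Tlr13. The 2 members that were past a 2-fold change in KO and not in WT were Tlr7 and Tlr8. In both genotypes all 10 calls had the same direction and stayed past the threshold under each of 16 alternatives. In KO too the UT and LPS libraries of the 10 members did not overlap, as was so for 76.0% of all genes. With the short structured RNA share as a covariate all 10 passed in each genotype, beside 33.5% of genes higher and 29.7% lower in WT and 24.6% higher and 23.6% lower in KO.

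**Figure D3:**
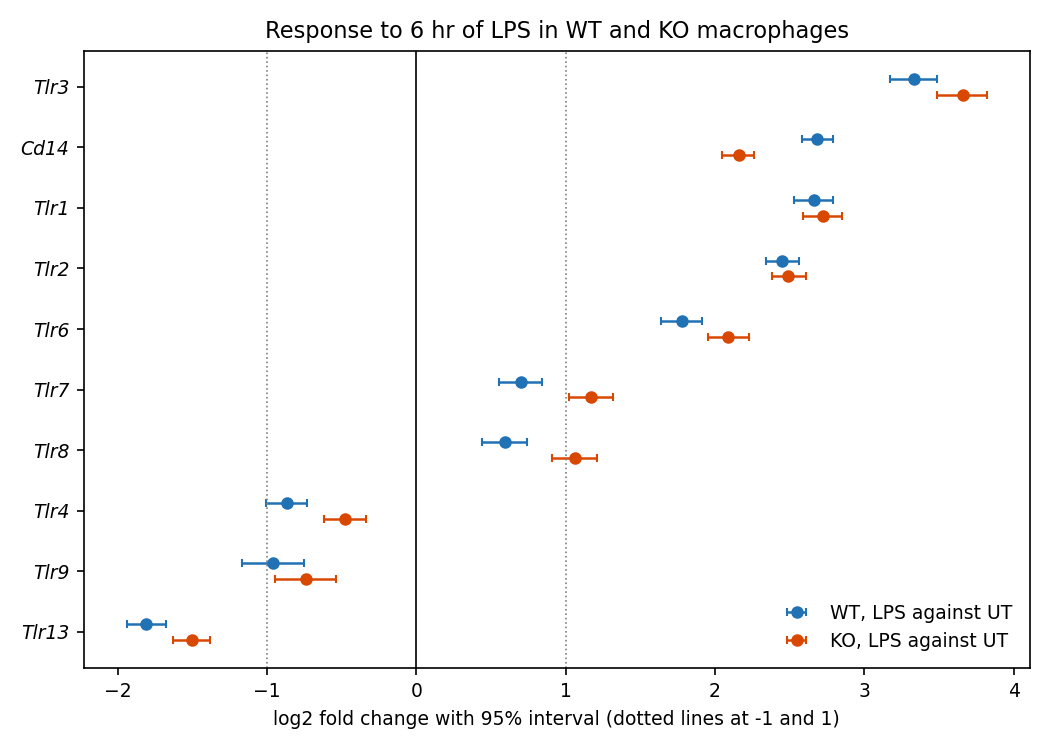
Log2 fold change of each member after 6 hr of LPS with its 95% interval, in WT (blue) and KO (orange), with dotted lines at a 2-fold change. Tlr3, Cd14, Tlr1, Tlr2 and Tlr6 lie above 1 in both genotypes, Tlr7 and Tlr8 lie on either side of 1, and Tlr4, Tlr9 and Tlr13 lie below 0.

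The comparison of KO LPS with WT LPS addressed how macrophages that lack HSS9 differ after stimulation. Of the 10 members, 5 were higher in KO (Tlr1, Tlr4, Tlr6, Tlr8 and Tlr13), 1 was lower (Tlr2) and 4 did not pass the test (Tlr3, Tlr7, Tlr9 and Cd14), and 0 were past a 2-fold change. Over all genes 7.78% were higher, 6.54% were lower and 1.25% were past that fold. That split of 1208 higher and 1015 lower turned with the scaling, to 1074 and 1246 under upper-quartile scaling and 957 and 1148 with protein-coding genes alone. Here the median log2 fold change was -0.01 over all genes and 0.20 over the members. The differences were small, at most 1.29-fold. Tlr1 had the largest, with 193, 184 and 182 CPM in WT LPS and 230, 243 and 247 CPM in KO LPS (log2 fold change 0.36 with SE 0.0590, edgeR adjusted p 2.89e-04). Tlr13 had 148, 141 and 133 CPM in WT LPS and 164, 171 and 188 CPM in KO LPS (log2 fold change 0.31 with SE 0.0605, edgeR adjusted p 0.00173). Tlr2, the only one lower in KO, had 966, 932 and 892 CPM in WT LPS and 763, 794 and 818 CPM in KO LPS (log2 fold change -0.23 with SE 0.0510, edgeR adjusted p 0.00411). The libraries of the genotypes did not overlap for any of these 3 genes, nor for 7 of the 10 members in all, beside 29.1% of all genes.

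Tlr8 was at 427, 421 and 500 CPM in KO LPS (log2 fold change 0.30, edgeR adjusted p 0.00812 against WT LPS), Tlr6 at 75.7, 73.2 and 78.5 CPM (0.25, edgeR adjusted p 0.0122) and Tlr4 at 119, 120 and 134 CPM (0.25, edgeR adjusted p 0.0186). Each of these 3 lay above the WT LPS libraries without overlap. With the share of short structured RNAs as a covariate these 3 and Tlr13 did not pass, at 0.12 for Tlr8, 0.17 for Tlr6, 0.06 for Tlr4 and 0.18 for Tlr13 (edgeR adjusted p from 0.111 to 0.689). Tlr4, Tlr6 and Tlr8 were also the calls that moved with a library: without WT LPS replicate 2, and likewise without KO LPS replicate 3, the count of members changed was 3 in place of 6, and none of Tlr4, Tlr6 and Tlr8 passed. Their log2 fold changes were then 0.22, 0.21 and 0.26 without the former and 0.19, 0.22 and 0.21 without the latter (edgeR adjusted p from 0.0504 to 0.105). Without WT LPS replicate 3 Tlr4 did not pass either (0.20), whereas Tlr3 did (-0.24), and without WT LPS replicate 1, the library highest for Tlr7, Tlr7 was higher in KO (log2 fold change 0.27) and the count was 7. Markers moved with this comparison as well. Of 7 macrophage markers 5 were higher in KO LPS, among them Itgam (0.36), Adgre1 (0.30) and Fcgr1 (0.26). Of 5 stromal markers 3 were higher, Dcn (1.58), Col1a1 (1.40) and Col1a2 (1.19), each at a mean of at most 2.43 CPM, and of 5 neutrophil markers tested S100a9 was (0.76), as was Cd4 (1.00), the single T cell marker tested, at a mean of 0.457 CPM in WT LPS and 0.914 CPM in KO LPS. Their part in the differences of the members was not tested.

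The 4 members that did not pass after LPS are given with their intervals. Tlr3 had a log2 fold change of -0.18 (95% interval -0.33 to -0.04, edgeR adjusted p 0.0792) and Tlr7 of 0.16 (95% interval 0.02 to 0.31, edgeR adjusted p 0.133). Cd14 was at 3210.5, 3379.5 and 3182.4 CPM in KO LPS, which overlapped the WT LPS libraries, with a log2 fold change of -0.07 and a 95% interval of -0.17 to 0.03. Tlr9 (log2 fold change 0.09) had the widest interval, -0.14 to 0.32, and the adjusted p by edgeR was 0.632.

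Without LPS, 2 members were higher in KO UT than in WT UT (Cd14 and Tlr1), 3 were lower (Tlr3, Tlr7 and Tlr2) and 5 did not pass, with 0 past a 2-fold change. The background was 14.1% of genes higher, 9.69% lower and 1.82% past that fold, and the median of the members was -0.14 on the log2 scale, beside 0.00 over all genes. The split of that background moved with the scaling, from 2196 genes higher and 1504 lower to 1724 higher and 2745 lower under RLE scaling. Cd14 was at 738, 730 and 722 CPM in KO UT against 539, 510 and 549 CPM in WT UT (1.37-fold, log2 fold change 0.46 with SE 0.0490, edgeR adjusted p 9.15e-07). Tlr3 was at 15.0, 15.4 and 14.3 CPM against 20.4, 22.4 and 20.7 CPM (1.42-fold lower, log2 fold change -0.51 with SE 0.0790, edgeR adjusted p 5.38e-05). Tlr7 was at 210, 215 and 225 CPM against 262, 272 and 271 CPM (log2 fold change -0.31, edgeR adjusted p 0.00247). In each of these the genotypes stood apart without overlap, Cd14 above and both endosomal receptors below WT. That held for 7 of the 10 members and for 40.8% of all genes. With the share of short structured RNAs as a covariate, the call was lost for each of the 3, with log2 fold changes of 0.28 for Cd14 (edgeR adjusted p 0.0514), -0.13 for Tlr3 (edgeR adjusted p 0.682) and 0.15 for Tlr7 (edgeR adjusted p 0.544).

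Tlr2 was at 136, 139 and 146 CPM in KO UT against 173, 168 and 169 CPM in WT UT (log2 fold change -0.27 with SE 0.0517, edgeR adjusted p 4.18e-04), and was thus lower in KO with and without LPS. Tlr1 was at 37.2, 34.3 and 37.6 CPM against 27.9, 28.8 and 31.8 CPM (log2 fold change 0.30 with SE 0.0631, edgeR adjusted p 0.00114), and was higher in KO with and without LPS. The difference of Tlr2 without LPS was lost with the share of short structured RNAs as a covariate, at -0.07 (edgeR adjusted p 0.766), whereas that of Tlr1 passed. Tlr4 (log2 fold change -0.15, edgeR adjusted p 0.109) and Tlr8 (-0.17, edgeR adjusted p 0.0994) did not pass, although their libraries did not overlap between the genotypes. Under RLE scaling, upper-quartile scaling, the test of DESeq2 and a fit on these 2 groups alone, both passed as lower in KO, which makes 7 members changed in place of 5. Over all genes DESeq2 called 1744 higher and 2802 lower here, and upper-quartile scaling gave 2036 and 1953. Tlr6, Tlr9 and Tlr13 overlapped between the genotypes, Tlr13 with 482, 493 and 510 CPM in WT UT and 484, 480 and 518 CPM in KO UT.

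The share of short structured RNAs differed between the genotypes in both treatments, so the fit with it as a covariate cannot tell the share from the genotype. With that share as a covariate, 3 members passed after LPS, Tlr1 higher and Tlr2 and Tlr3 lower (log2 fold changes 0.29, -0.33 and -0.36), and 1 passed without LPS, Tlr1 with 0.46. The calls over all genes fell as well under this fit, to 4.17% higher and 4.58% lower after LPS and to 3.96% higher and 1.58% lower without LPS. Tlr1 was the member whose genotype difference passed in both treatments under all 16 alternatives. In KO UT, where Cd14 was higher, the neutrophil markers also summed higher (42.0 to 47.2 CPM against 19.9 to 21.5 CPM in WT UT), led by S100a8 and S100a9, and their part in the Cd14 difference was not tested. Of the 5 neutrophil markers tested 4 were higher in KO UT, S100a8 (1.16), S100a9 (1.21), Camp (2.04) and Mpo (2.83), and Ltf did not pass. Camp was at a mean of 0.863 CPM and Mpo of 0.393 CPM in KO UT. Ly6g was at 0 in all of these libraries. Of the 7 macrophage markers 4 were higher in KO UT (Cd68 0.40, Mertk 0.24, Lyz2 0.22 and Adgre1 0.18) and Csf1r was lower (-0.13), and of the 5 stromal markers Dcn (1.45) and Pdgfra (1.45) were higher. Their part in these differences was not tested either.

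**Figure D4:**
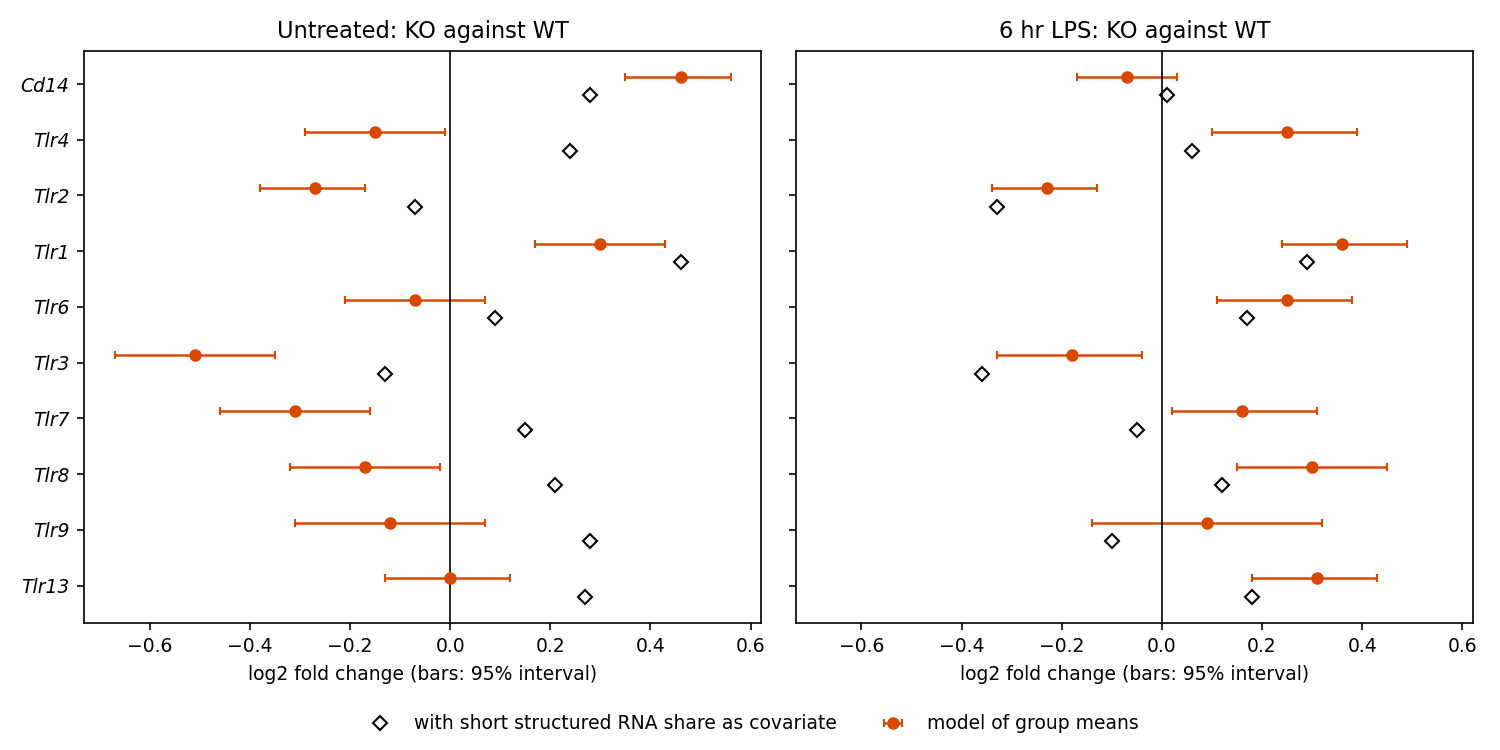
Log2 fold change of KO against WT for each member, without LPS (left) and after 6 hr of LPS (right), with circles for the model of group means and its 95% interval and diamonds for the fit with the short structured RNA share as a covariate. Tlr1 lies to the right of 0 in both panels for both fits, Tlr2 lies to the left, with its diamond without LPS close to 0 at -0.07 and not past the test, and Cd14 lies at 0.46 without LPS and at -0.07 after it.

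Whether the response to LPS itself differed between the genotypes was tested as the interaction, the log2 response of KO minus that of WT. It passed for 7 members, 6 with a higher value in KO and 1 lower, with 0 past a 2-fold difference, and the background was 7.32% of genes higher, 9.50% lower and 2.16% past that fold. The median interaction was 0.31 over the members and -0.01 over all genes. Here too the background moved with the scaling, from 1136 genes higher and 1475 lower to 1982 higher and 1138 lower under RLE scaling, with an upward shift of all genes by a median of 0.08. Cd14 rose less in KO, from a higher start to levels that overlapped those of WT (interaction -0.53, SE 0.0691, edgeR adjusted p 3.73e-05). Tlr7 (interaction 0.47, edgeR adjusted p 0.00229) and Tlr8 (0.47, edgeR adjusted p 0.00292) rose more in KO. Tlr4 (interaction 0.39, edgeR adjusted p 0.00573) and Tlr13 (0.31, edgeR adjusted p 0.0144) fell less in KO. Tlr6 (interaction 0.32, edgeR adjusted p 0.0232) and Tlr3 (0.33, edgeR adjusted p 0.0357) rose more in KO. Markers had interactions that passed as well, and their part in those of the members was not tested. The neutrophil markers S100a8 (-1.05), Camp (-1.98) and Mpo (-3.57) were among them, as were the macrophage markers Csf1r (0.29), Fcgr1 (0.27) and Cd68 (-0.29) and the stromal marker Col1a2 (1.38).

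The Cd14, Tlr4, Tlr7 and Tlr8 interactions passed whichever of the 12 libraries was left out. Leaving out a library ended the Tlr3 call in 9 of 12 cases, all but WT UT replicate 1, WT LPS replicate 1 and KO LPS replicate 2, with values from 0.27 to 0.35. It ended the Tlr6 call in 5 of 12 cases, WT UT replicate 1 (0.27), KO UT replicate 1 (0.28), KO UT replicate 2 (0.31), WT LPS replicate 2 (0.28) and KO LPS replicate 3 (0.29), and the Tlr13 call without KO LPS replicate 3 (0.25), which left 4 members in place of 7.

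The interactions of Tlr1 (0.06, 95% interval -0.12 to 0.24), Tlr2 (0.04, 95% interval -0.11 to 0.19) and Tlr9 (0.21, 95% interval -0.08 to 0.51) did not pass. For Tlr3 the fit with the replicate number as a block, which the labels tie to a batch number, gave an edgeR adjusted p of 0.0504, in a range of 2.07e-04 to 0.691 over its 21 alternatives, 10 of which passed. With the short structured RNA share as a covariate 0 members passed by edgeR, 1 at an unadjusted p below 0.05, with adjusted p of 0.361 or more for all 10. Over all genes that fit called 0.477% higher and 0.728% lower, so that a count of 0 among 10 is near the background and is no result about the members. The test of DESeq2 without the covariate called 7, beside 2154 of all genes higher and 1232 lower.

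Ratios between members within a library give the same data free of the scaling between libraries. Cd14 to Tlr4 was 14.3, 13.6 and 12.6 in KO UT against 9.26, 8.47 and 8.89 in WT UT, without overlap, and 86.3, 90.4 and 76.0 in KO LPS against 89.4, 113 and 114 in WT LPS, with overlap. Tlr2 to Tlr4 was 11.8, 12.2 and 11.2 in KO LPS against 15.4, 17.0 and 16.7 in WT LPS, the lower side being KO in each treatment. Tlr1 to Tlr6 was 2.48, 2.16 and 2.22 in KO UT against 1.57, 1.74 and 2.00 in WT UT. Tlr7 to Tlr8 varied least, from 0.864 to 1.08 over the 12 libraries, and Tlr3 to Tlr13 most, from 0.0228 to 1.35. Both of these ratios were lower in KO than in WT in each treatment, without overlap. After LPS, Tlr7 to Tlr8 was 0.964, 0.972 and 0.921 in KO against 1.08, 1.04 and 1.01 in WT.

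**Figure D5:**
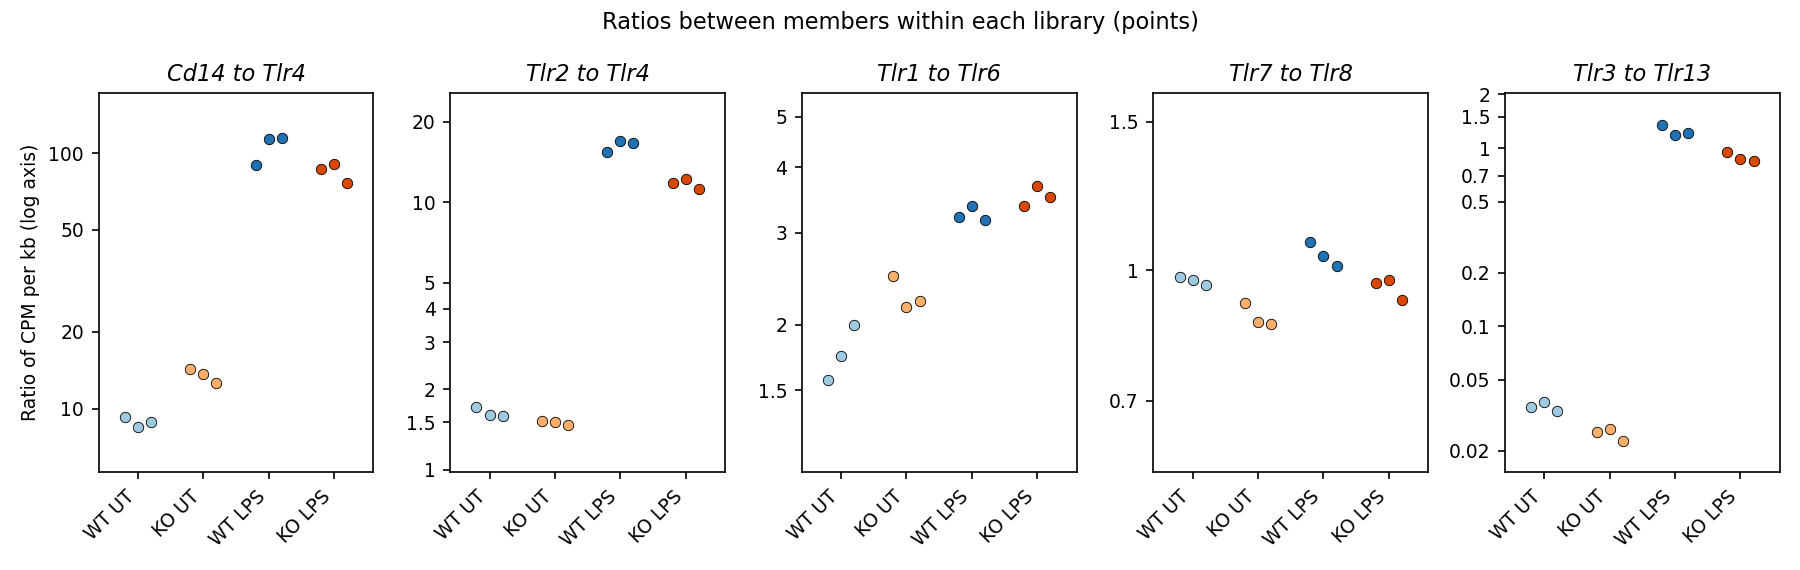
Ratio between 2 members within each library, both in CPM per kb, on log axes, with 1 panel for each of 5 pairs and points for the 3 libraries of each group. Cd14 to Tlr4 goes from a mean of 8.87 in WT UT to 105 in WT LPS, and Tlr7 to Tlr8 stays between 0.864 and 1.08.

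The other Tlr genes of the mouse had at most 149 counts in any library. Tlr5, the receptor for flagellin, had 110, 145 and 149 counts in WT UT, 100, 93 and 94 in KO UT, 0, 2 and 0 in WT LPS and 0 in each KO LPS library. Its fall with LPS passed in WT (edgeR adjusted p 4.40e-10) and in KO (edgeR adjusted p 2.25e-10). Set against a floor of 3 counts per library, the KO LPS level was at least 23.7-fold lower than that of KO UT. Tlr11 had 4 to 17 counts per library and passed no test, and Tlr12 had 1, 0 and 4 counts in KO UT and 0 elsewhere.

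The lists of partner genes that follow are to be read against the shares of all genes called in the same comparisons, which were 38.0% higher and 35.3% lower with LPS in WT, 7.78% and 6.54% in KO LPS against WT LPS, 14.1% and 9.69% in KO UT against WT UT and 7.32% and 9.50% in the interaction. Proteins that work beside the surface receptors were read as a list of 7, of which Lbp and Vtn, both made mainly in the liver, were under the filter. After LPS in WT, where most genes changed, 3 of the 5 tested rose and 2 fell. Ly96, the LPS-binding partner of Tlr4, rose from 20.2, 21.4 and 19.8 to 38.5, 37.8 and 40.5 CPM (log2 fold change 0.93, edgeR adjusted p 6.53e-10), the opposite of Tlr4. Cd180, a TLR-like protein that pairs with Ly86, fell (-0.77) whereas Ly86 rose (0.52). Itgam rose by 1.16 and Cd36, a scavenger receptor that aids Tlr2, fell by 0.28 on the log2 scale.

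Between the genotypes after LPS, 4 of these 5 were higher in KO, with a median of 0.36 over the list beside -0.01 over all genes. Cd36 had the largest difference of the list, with 247, 230 and 210 CPM in WT LPS and 405, 395 and 406 CPM in KO LPS (log2 fold change 0.81, edgeR adjusted p 3.12e-08). Ly86 (0.45), Itgam (0.36) and Cd180 (0.21) were higher in KO too, and Ly96 was at 0.03. Without LPS, Cd36 (0.66), Ly86 (0.59) and Ly96 (0.45) were higher and Cd180 (-0.22) was lower in KO, and Itgam did not pass. The interaction passed for Ly96 (-0.42, edgeR adjusted p 0.0110) and Cd180 (0.43, edgeR adjusted p 0.00134), the same signs as for Cd14 and Tlr4. With the short structured RNA share as a covariate 3 of the 5 passed after LPS, 2 without LPS and 0 in the interaction (edgeR, 1 at an unadjusted p below 0.05), where that fit called 4.17% of all genes higher and 4.58% lower after LPS, 3.96% and 1.58% without LPS, and 0.477% and 0.728% in the interaction. The same shares apply to the covariate counts of the lists that follow.

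Of 8 chaperones and trafficking proteins of the TLRs, 2 rose and 4 fell with LPS in WT, beside 38.0% of all genes that rose and 35.3% that fell. Slc15a3 (2.98), an endolysosomal transporter, and Ap3b1 (1.28), a subunit of an adaptor complex, rose. Rab7b (-1.59), a small GTPase that takes Tlr4 and Tlr9 to lysosomes, Cnpy4 (-1.34), Cnpy3 (-0.61) and Slc15a4 (-0.55) fell. Unc93b1, which escorts the endosomal receptors out of the endoplasmic reticulum, did not pass (0.09, edgeR adjusted p 0.136). In KO LPS against WT LPS 2 were higher, Rab7b (0.54, edgeR adjusted p 7.82e-07) and Unc93b1 (0.19, edgeR adjusted p 0.0239), and 0 were lower. Without LPS Cnpy3 (0.35), Rab7b (0.24) and Unc93b1 (0.18) were higher and Hsp90b1 (-0.25) was lower in KO. The interaction passed for Rab7b (0.30) and Cnpy3 (-0.34). With the covariate 3 of the 8 passed after LPS, 0 without LPS and 0 in the interaction by edgeR, with 1 at an unadjusted p below 0.05 in each of the latter comparisons.

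Of 9 endosomal proteases and nucleases, which trim the receptors or prepare their nucleic acid ligands, 3 rose and 5 fell with LPS in WT, a comparison in which most genes changed (38.0% rose and 35.3% fell). Rnaset2a (2.64) and Rnaset2b (2.49) rose, but these are near-identical copies whose reads the counting could have split or dropped, so their values are uncertain. Ctss rose by 0.17, and Dnase2a (-1.46), Lgmn (-0.90), Pld4 (-0.90), Ctsb (-0.63) and Pld3 (-0.54) fell. After LPS Lgmn (0.27) and Ctsb (0.23) were higher and Pld4 (-0.20) and Rnaset2a (-0.42) lower in KO. Without LPS 5 were higher in KO (Rnaset2a 0.61, Dnase2a 0.53, Rnaset2b 0.48, Lgmn 0.33 and Ctss 0.21) and 0 lower, beside 14.1% of all genes higher and 9.69% lower. The interaction was negative for Dnase2a (-0.41), Rnaset2a (-1.03) and Rnaset2b (-0.78). With the covariate 3 of the 9 passed after LPS, 1 without LPS and 0 in the interaction, where 2 were below an unadjusted p of 0.05.

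Of 6 TIR adaptors, 0 passed in KO LPS against WT LPS by edgeR, at an unadjusted p below 0.05 or by DESeq2. The DESeq2 background of that comparison was 1435 genes up and 1096 down. In the interaction 0 passed by edgeR, 0 at an unadjusted p below 0.05 and 2 by DESeq2, whose background was 2154 genes up and 1232 down. Among the 6, 1 passed by edgeR without LPS (Ticam1, -0.35, edgeR adjusted p 0.0465). For the untreated cells DESeq2 gave 2, against a background of 1744 genes up and 2802 down. The fit with the covariate gave 0 without LPS, also at an unadjusted p below 0.05. With LPS in WT, beside 38.0% of all genes that rose and 35.3% that fell, 4 rose, Myd88 by 2.37, Pik3ap1 by 1.41, Tirap by 0.89 and Ticam1 by 0.51, and Sarm1, a negative regulator, fell by 2.48. Sarm1 had only 29, 31 and 38 counts in WT UT and 5, 4 and 0 in WT LPS. Of 5 genes that restrain TLR signalling, Tnfaip3 (5.34) and Irak3 (3.24) rose and Sigirr (-3.11) fell with LPS in WT. Sigirr went from 87, 122 and 94 counts to 5, 10 and 3, so the size of its fall is uncertain. After LPS Irak3 was higher (0.18) and Tnfaip3 lower (-0.30) in KO, of which Irak3 did not pass with the covariate (0.14, edgeR adjusted p 0.278) and Tnfaip3 did (-0.32). Without LPS 0 of the 5 passed by edgeR, 1 at an unadjusted p below 0.05 and 2 by DESeq2, which called 1744 of all genes higher and 2802 lower. With the covariate 1 passed without LPS (Tollip, 0.44, edgeR adjusted p 0.0285). The interaction was 0.33 for Irak3 (edgeR adjusted p 0.0125) and -0.28 for Tnfaip3 (edgeR adjusted p 0.0237), and with the covariate 0 of the 5 passed the interaction, 2 being below an unadjusted p of 0.05.

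The genes whose levels over the 12 libraries were most like those of a member are given as a description, from Pearson's r of log2 CPM over 9588 genes. The 12 libraries share the LPS contrast, so that a gene with a like response to LPS has a high r. For Cd14 they were Clec4d (r = 0.9992), Esd (0.9991) and Timp1 (0.9991). For Tlr4 they were Phkb (r = 0.9952), Glud1 (0.9950) and Ccr2 (0.9933), and for Tlr9 Pus7 (0.9894), Setdb1 (0.9891) and Stard4 (0.9889).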

How the data were processed

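The deposited table holds raw counts per gene for 12 total RNA libraries. The authors prepared them with a stranded total RNA kit with globin removal, sequenced paired ends, and, per the submitters' processing notes, used FastQC 0.11.9, HISAT2 2.1.0, SAMtools 1.17 and featureCounts 2.0.0 with the GRCm38 build. How strand and multi-mapped reads were handled, and which annotation release was used, are not given in the sources used here, and these can affect genes that overlap or have close copies.

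Symbols, coordinates and merged exon lengths came from GENCODE vM21 (GRCm38), which matched 48144 of 48526 identifiers. The other rows held 0.122% of counts. The edgeR 4.0.16 quasi-likelihood test (R 4.3.3) was fitted to all 12 libraries as 4 group means with TMM scaling, after filterByExpr (minimum count 10), which kept 15523 genes and 99.96% of counts, with Benjamini-Hochberg adjustment over these genes and a common biological coefficient of variation of 0.0712. CPM are counts scaled to 1000000 per TMM-scaled library, and SE is the log2 fold change divided by the root of the F statistic. Levels between genes are per kb of merged exon. The fit was tested on simulated data with known changes. The floor of 3 counts covers counting error only, and the reads carry no molecular identifiers. The intervals, like the p-values, cover only the spread between these libraries, which may be technical.

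Libraries with the same replicate number share a batch number in the labels, so the number pairs them. Each batch holds 1 library of each group, so no test within a batch was possible and the batch entered as a block. Deviations from the group means correlated between -0.0631 and 0.0373 over 18 such pairs. The lowest chi-square per degree of freedom between replicates was 3.81, so all were kept as separate samples. The genes named are the 10 members, Tnf, the other Tlr genes, lists of partners and markers, and the 3 genes most alike to each of Tlr4, Tlr9 and Cd14. Markers named come from the marker lists. The members and lists were chosen with earlier results of these data known. The study called changes by DESeq2 with a fold minimum. DESeq2 1.42.0 and that minimum were alternatives here, as were RLE and upper-quartile scaling, protein-coding genes alone, scaling without the 10 most-counted genes, other filters, the block, fits on the compared groups alone, a short structured RNA covariate and fits without each library. Figures were drawn with matplotlib 3.10.9.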

Additional observations from a re-analysis of the deposited data

Results flagged for a closer look

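The response to LPS differed between the genotypes, by the test of the interaction itself, for 7 of the 10 members, beside 7.32% of all genes higher and 9.50% lower. The count was 4 to 7 when a library was left out and 6 with the replicate block. The values are the log2 response in KO minus that in WT, 0.33 for Tlr3, 0.39 for Tlr4, 0.32 for Tlr6, 0.47 for Tlr7, 0.47 for Tlr8, 0.31 for Tlr13 and -0.53 for Cd14. The short structured RNA share of the libraries also moved with these groups, from 3.00% to 3.25% in WT UT and 4.04% to 6.89% in WT LPS, and from 6.64% to 7.98% in KO UT and 3.23% to 3.43% in KO LPS. The share and the interaction therefore cannot be told apart by a fit that holds both. With it as a covariate the same 7 values were -0.23, -0.17, 0.08, -0.20, -0.09, -0.10 and -0.27, and 0 of them passed by edgeR, 1 of the 10 members being below an unadjusted p of 0.05. Over all genes that fit called 0.477% higher and 0.728% lower. Of the markers of other cell types, the neutrophil markers S100a8 (-1.05), Camp (-1.98) and Mpo (-3.57, on 1 to 20 counts per library) and the stromal marker Col1a2 (1.38) also had interactions that passed. Their part was not tested.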

How the results depend on the processing

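All 10 members changed with LPS in WT and in KO, 7 higher and 3 lower, under every alternative without a fold minimum, with 10 to 10 members when a library was left out. With a minimum of a 2-fold change the counts were 6 in WT and 0 for KO LPS against WT LPS, KO UT against WT UT and the interaction. With the short structured RNA share as a covariate they were 3, 1 and 0 for these 3. Leaving out a library in turn gave 3 to 7 members for KO LPS against WT LPS, 5 to 5 for KO UT against WT UT and 4 to 7 for the interaction. The replicate block gave 6 members for the interaction, without Tlr3, and the block changed no other call. Upper-quartile scaling lowered all LPS responses by a median of 0.18 (shift of -0.18). Of the values of single members under the alternatives, 779 stayed on their side of the threshold with the same sign, 32 fell short of it, 16 passed it newly and 23 changed sign. With the covariate the sign changed, to log2 values of -0.05 for Tlr7, -0.10 for Tlr9 and 0.01 for Cd14 in KO LPS against WT LPS, to 0.24 for Tlr4, 0.09 for Tlr6, 0.15 for Tlr7, 0.21 for Tlr8, 0.28 for Tlr9 and 0.27 for Tlr13 in KO UT against WT UT, and to -0.17 for Tlr1, -0.25 for Tlr2, -0.23 for Tlr3, -0.17 for Tlr4, -0.20 for Tlr7, -0.09 for Tlr8, -0.38 for Tlr9 and -0.10 for Tlr13 in the interaction. Tlr13 without LPS, at -0.00, changed sign at 0.00 with protein-coding genes alone and with a filter at a mean of 1 CPM. It was 0.02 without WT UT replicate 3 or KO UT replicate 2 and 0.01 without KO UT replicate 1, in a range of -0.04 to 0.02 over the libraries left out, and the Tlr2 interaction was -0.00 with protein-coding genes alone. The cause of these changes was not tested. Tlr9, the member with the fewest counts, had the widest intervals of the 10.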
